A study of Mus musculus with 16 samples.

Results

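Cytosolic ribosomal proteins are the protein components of the large (60S) and small (40S) subunits of the ribosome, and 48 of the 12393 genes that the platform annotation names singly on this array belong to the family. They were measured by 100 of the 22690 probe sets. The genes were chosen by name alone, from probe sets with exactly 1 symbol, where that symbol is Rpl or Rps followed by a digit, Rplp0, Rplp1, Rplp2 or Rpsa. Symbols of the S6 kinases and of a pseudogene, 7 probe sets in all, were left out. The 100 probe sets stood for 48 genes: 46 probe sets for 26 genes of the large subunit and 54 probe sets for 22 genes of the small subunit. A further 102 probe sets were annotated with several symbols, of which at least 1 was ribosomal, and were not used.

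Left ventricular RNA came from 16 mice, 1 animal per array, in 4 groups of 4: males after transverse aortic constriction, females after the same operation, sham-operated males and sham-operated females. Transverse aortic constriction (TAC) narrows the aortic arch, so that the left ventricle pumps against a raised pressure and thickens. Per the labels, all animals were C57BL/6J mice aged 12 to 14 weeks, no allele or transgene was named, and RNA was taken 14 days after surgery. The labels name ketamine and isoflurane anaesthesia for TAC, and buprenorphine after TAC and after sham surgery. Although the series' design names an RAE 430A array, the probe sets are those of the mouse 430A.

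A ribosome holds 1 copy of nearly every ribosomal protein, so the cell makes these proteins in matched amounts. Most of their mRNAs in mammals start with a C followed by a stretch of pyrimidines, the 5′ terminal oligopyrimidine (TOP) tract, through which mTORC1 signalling and the La-related protein LARP1 control their translation. In the heart, pressure overload is known for raising ribosome content and protein synthesis while the myocytes enlarge. The array measures mRNA levels and says nothing of the amount of protein or of ribosomes.

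The bases around the annotated start are shown for 9 of the genes named below, since these mRNAs are known for a shared start sequence. The 9 are examples and do not give the shares of the family, which follow after the windows. Each window runs from 10 bases before the RefSeq start to the 20th transcribed base, in build GRCm38.p6, and is read 5′ to 3′ on the gene's own strand. Capitals mark runs of 5 or more C or T. Rpl3l has a second RefSeq start, whose window (chr17:24732675-24732704, plus strand) holds no such run and is not printed.
Rpl35, chr2:39005112-39005141, minus strand: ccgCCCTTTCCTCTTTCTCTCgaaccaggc
Rpl38, chr11:114668570-114668599, plus strand: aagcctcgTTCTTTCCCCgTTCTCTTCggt
Rps18, chr17:33955646-33955675, minus strand: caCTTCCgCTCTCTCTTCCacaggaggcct
Rplp2, chr7:141447641-141447670, plus strand: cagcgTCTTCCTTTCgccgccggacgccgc
Rpl13a, chr7:45128726-45128755, minus strand: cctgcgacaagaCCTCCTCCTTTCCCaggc
Rpsa, chr9:120127756-120127785, plus strand: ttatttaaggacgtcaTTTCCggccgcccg
Rps28, chr17:33824543-33824572, minus strand: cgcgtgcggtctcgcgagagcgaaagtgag
Rplp0, chr5:115559457-115559486, plus strand: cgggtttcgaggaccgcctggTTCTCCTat
Rpl3l, chr17:24727816-24727845, plus strand: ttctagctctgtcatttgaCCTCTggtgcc
In Rpl35, Rpl38, Rps18 and Rplp2 the pyrimidine run covers the annotated start itself, and in Rpl13a it begins just after it. The window of Rps28 holds no run of that length. All windows rest on annotated starts, and where transcription begins was not measured here.

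Promoters from the RefSeq table, 250 bases before to 50 bases after the start, were found for 42 of the 48 genes. A gene with several annotated starts was counted if any of them had the sequence. A C followed by at least 4 C or T at the annotated start stood in 8 of the 42 genes (19.0%), against 3.01% of the 27025 genes of the table. A run of at least 8 C or T within 25 bases on either side of the start stood in 23 of 42 (54.8%), against 22.3% of all genes. The sequence CCGGAAG, searched on both strands of the 300 bases, stood in 21 of 42 (50%), against 9.93% of all genes. Set beside the array data, the pyrimidine run near the start stood in 11 of 21 genes with a probe set that rose in the mean of the sexes, against 10 of 18 other genes of the family that passed the signal limit described next, and CCGGAAG in 10 of 21 against 10 of 18.

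Of the 100 probe sets, 84 for 45 genes passed the signal limit, which left out the dimmest 40% of all probe sets on the array. The 16 dim probe sets had mean signals between 10.4 and 149 and were not tested. For Rpl12, Rpl14 and Rpl39l, the last a testis-enriched paralog of Rpl39, no other probe set was available, so these 3 genes have no result. All counts below therefore concern the 84 probe sets that passed, and several probe sets of 1 gene are not independent measurements of it. Signals are in the arbitrary linear units of the deposited table, and differences are TAC minus sham on the scale of log2(signal + 16), which understates changes of dim probe sets. "Rose" and "fell" are used only where limma's adjusted p was under 0.05, with the adjustment over all 13576 probe sets tested.

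Ribosomal protein mRNAs were more often higher than lower after TAC in both sexes, by small amounts. In males 30 of 84 probe sets rose (35.7%) and 1 fell, where 8.07% of all probe sets tested rose and 9.77% fell. In females 16 of 84 rose and 2 fell, where 6.46% of all rose and 8.60% fell. The mean of the sexes, which uses all 16 arrays, had 38 that rose and 2 that fell, against 12.9% and 15.8% of all. By gene, 22 of 45 had at least 1 probe set that rose in that comparison, 17 in males and 9 in females, where 15.8%, 9.88% and 8.11% of all 8272 genes did. Genes differ in their number of probe sets, which these shares do not allow for. Differences lay above 0 for 68 of the 84 in males (46.6% of all probe sets did), for 65 in females (46.6% of all) and for 67 in the mean of the sexes (46.1% of all). The 4 TAC and 4 sham arrays did not overlap for 32 that were higher and 1 that was lower in males, where 8.75% and 10.9% of all did not, and for 18 higher and 4 lower in females, where 8.29% and 11.6% of all did not. All 8 TAC arrays lay above all 8 sham arrays for 8 probe sets and below them for 1, against 2.84% and 4.61% of all. Those 8 were 4 of Rpl35, 2 of Rps28 and 1 each of Rpl13a and Rps20, and the 1 was Rpl3l.

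The median difference of the 84 probe sets was 0.27 in males, 0.16 in females and 0.22 in the mean of the sexes, on the log2 scale. Over all 13576 probe sets the medians were −0.03 in each of these comparisons. Differences lay above 0 in both sexes for 56 of 84 probe sets (66.7%), against 32.9% of all. With 1 probe set for each gene, the brightest, 13 of 45 rose in males, where 8.10% of all genes did, and 15 in the mean of the sexes, where 13.4% did. In females 4 of 45 rose (8.89%), a share near the 6.37% of all genes. The medians of the 45 were 0.20 in males, 0.09 in females and 0.14 in the mean of the sexes. Among the 740 tested probe sets with a mean log2 signal of at least 12, of which 58 were ribosomal, the median in the mean of the sexes was −0.02, and it was 0.22 for those 58. The number of arrays limits the precision, and with bulk tissue, fewer cells of a type and less RNA per cell cannot be told apart.

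On each array, the median deviation of the 84 probe sets from their means over the 16 arrays was taken as a description of their common level. It lay between 0.06 and 0.17 on the male TAC arrays, between −0.22 and −0.09 on the male sham arrays, between 0.02 and 0.21 on the female TAC arrays and between −0.17 and −0.03 on the female sham arrays. All 8 TAC arrays thus stood above all 8 sham arrays. The highest was a female TAC array and the lowest a male sham array. Both subunits showed the separation within each sex. The large-subunit probe sets had group means of 0.12 in male TAC and −0.12 in male sham, and of 0.09 in female TAC and −0.09 in female sham. For the small subunit the group means were 0.12 in male TAC and −0.16 in male sham, and 0.09 in female TAC and −0.07 in female sham.

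**Figure D1:**
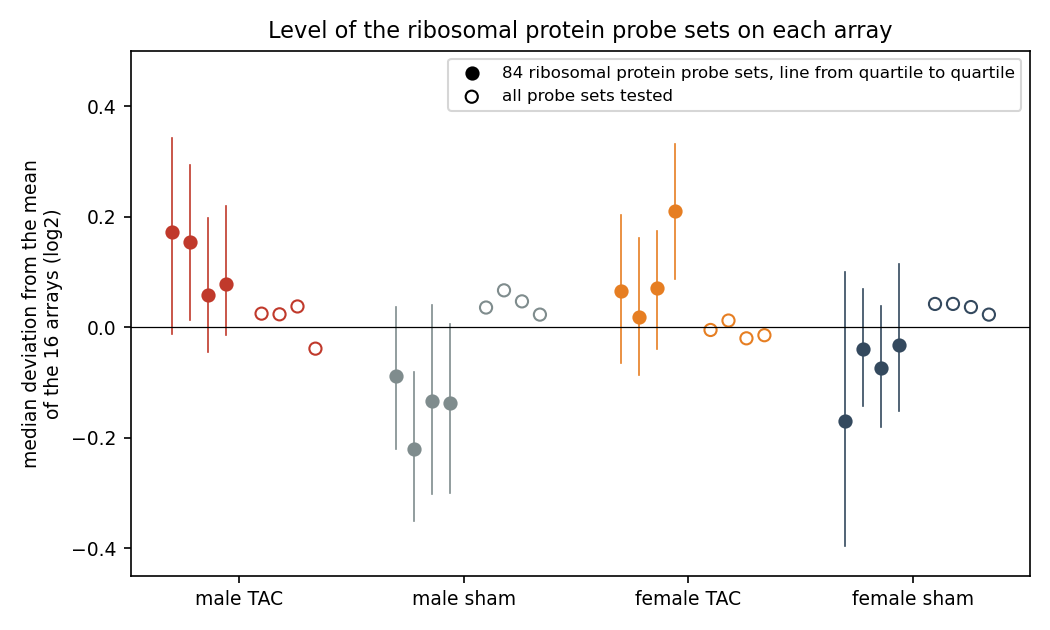
Median deviation from the 16-array mean (vertical axis, log2) on each array, for the 84 ribosomal protein probe sets (filled points, lines between the quartiles of the 84) and for all 13576 probe sets tested (open points), in male TAC, male sham, female TAC and female sham. The filled points lie above 0 on all 8 TAC arrays and below 0 on all 8 sham arrays, while the open points stay between −0.04 and 0.07.

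RNA and array quality measures also differed between the operations, in 4 of 6 tests after adjustment. The 3′ to 5′ signal ratio of Gapdh, a control for cDNA length, was 1.004 to 1.16 in male TAC against 0.837 to 0.921 in male sham, and 0.958 to 1.03 in female TAC against 0.785 to 0.918 in female sham. The groups did not overlap in either sex (exact permutation test, 2-sided, p = 0.0286 in each sex, the smallest p that 4 against 4 allows, adjusted p = 0.0429 over 6 tests). The log2 signal of the 18S rRNA control's 5′ probe set was lower by 3.03 in male TAC than in male sham (exact p = 0.0571, adjusted p = 0.0686), and lower by 1.77 in female TAC than in female sham (exact p = 0.0286, adjusted p = 0.0429). The 3′ to 5′ ratio of actin was 1.39 to 1.98 in male TAC against 1.34 to 1.59 in male sham (exact p = 0.114, adjusted p = 0.114), and 1.46 to 1.93 in female TAC against 1.33 to 1.402 in female sham (exact p = 0.0286, adjusted p = 0.0429). With the Gapdh ratio as a covariate, 3 probe sets rose in males, 2 in females and 3 in the mean of the sexes, where 1.10%, 1.27% and 1.75% of all probe sets rose. Those 3 were Rps28, Rpl41 and Rpsa in males and in the mean of the sexes, and Rps28 and Rpl41 in females. All other rises among the 84 probe sets, those given below included, were lost in that fit. The medians of the 84 were then 0.24 in males, 0.11 in females and 0.17 in the mean of the sexes. In the same fits 1438723_a_at of Rps10 fell by 0.79 in males (adjusted p = 0.0204) and by 0.53 in the mean of the sexes (adjusted p = 0.0326), and no other probe set of the 84 fell. With the 18S signal as a covariate, 15 rose in males, 11 in females and 19 in the mean of the sexes, where 3.17%, 4.86% and 5.93% of all rose. Since the Gapdh ratio does not overlap between the operations, the 2 cannot be fully told apart in these fits.

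Rpl3l, the paralog of Rpl3 that replaces it in the ribosomes of heart and skeletal muscle, was lower after TAC. Its signals were 1855.3, 1644.8, 2263.6 and 1193.1 in male TAC, against 3202.9, 2780.7, 3863.1 and 2607.5 in male sham. In females they were 1695, 1889.8, 959 and 1194.1 after TAC, against 2465.4, 2792.7, 2683 and 2790.9 in sham. All 8 TAC arrays were below all 8 sham arrays. Rpl3l fell by 0.85 on the log2 scale in males (SE 0.20, adjusted p = 0.00442) and by 0.94 in females (SE 0.20, adjusted p = 0.00248), and by 0.90 in the mean of the sexes (SE 0.14, adjusted p = 5.49e-05), which is 1.87-fold lower. It was the lowest of the 84 differences in all 3 comparisons. In the fit with the Gapdh covariate its difference in the mean of the sexes was −0.85 and did not pass (adjusted p = 0.0958), and over the 28 alternatives the difference lay between −1.204 and −0.79. No probe set was annotated to Rpl3 alone, so the parent gene was not analysed here.

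Rpl35, a large-subunit protein near the exit of the peptide tunnel, had 6 probe sets, of which 5 rose in the mean of the sexes. Probe set 1436840_x_at had signals of 8420.1, 9161.6, 6161.4 and 6521 in male TAC, against 5125.9, 4187.7, 4330.2 and 4432.3 in male sham. In females it had 6594.2, 7624.8, 7660.9 and 7012.8 after TAC, against 3880.2, 4392.4, 4493.3 and 4021.1 in sham. Every TAC array was above every sham array, and the male TAC group had the widest spread. The difference was 0.73 in males (SE 0.12, adjusted p = 0.000232), 0.78 in females (SE 0.12, adjusted p = 0.000166) and 0.75 in the mean of the sexes (SE 0.08, adjusted p = 1.19e-06), a 1.69-fold higher level. With the Gapdh covariate it did not pass in males (adjusted p = 0.322), in females (adjusted p = 0.0535) or in the mean of the sexes (adjusted p = 0.0927). Over the 27 alternatives the difference in the mean of the sexes lay between 0.46 and 0.84. On 4 of the 6 probe sets of Rpl35 all 8 TAC arrays stood above all 8 sham arrays. The sixth, 1454833_at, was above the signal limit but had low signals, and it neither rose nor fell. It had 101.4 to 150.6 in female TAC against 37 to 130.4 in female sham, and 129 to 284 in male TAC against 165 to 277 in male sham.

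Rpl13a, a large-subunit protein that also leaves the ribosome to block translation of inflammatory mRNAs, rose on all 4 of its probe sets in the mean of the sexes. The largest difference was that of 1433928_a_at, with 901.6, 777.5, 653.2 and 586.5 in male TAC against 317.5, 395.4, 380.4 and 309.9 in male sham. In females it had 706.9, 811.6, 466.9 and 812.1 after TAC, against 341.6, 395.7, 454.4 and 523.1 in sham. The groups did not overlap in males, and in females 1 TAC array was below the highest sham array. The difference was 1.01 in males (adjusted p = 0.000855), 0.67 in females (adjusted p = 0.0203) and 0.84 in the mean of the sexes (adjusted p = 7.54e-05). The female call was lost without any of 4 single arrays, with an adjusted p of at most 0.0714, that without female sham 1. The other 3 probe sets rose by 0.31 to 0.38 in the mean of the sexes.

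**Figure D2:**
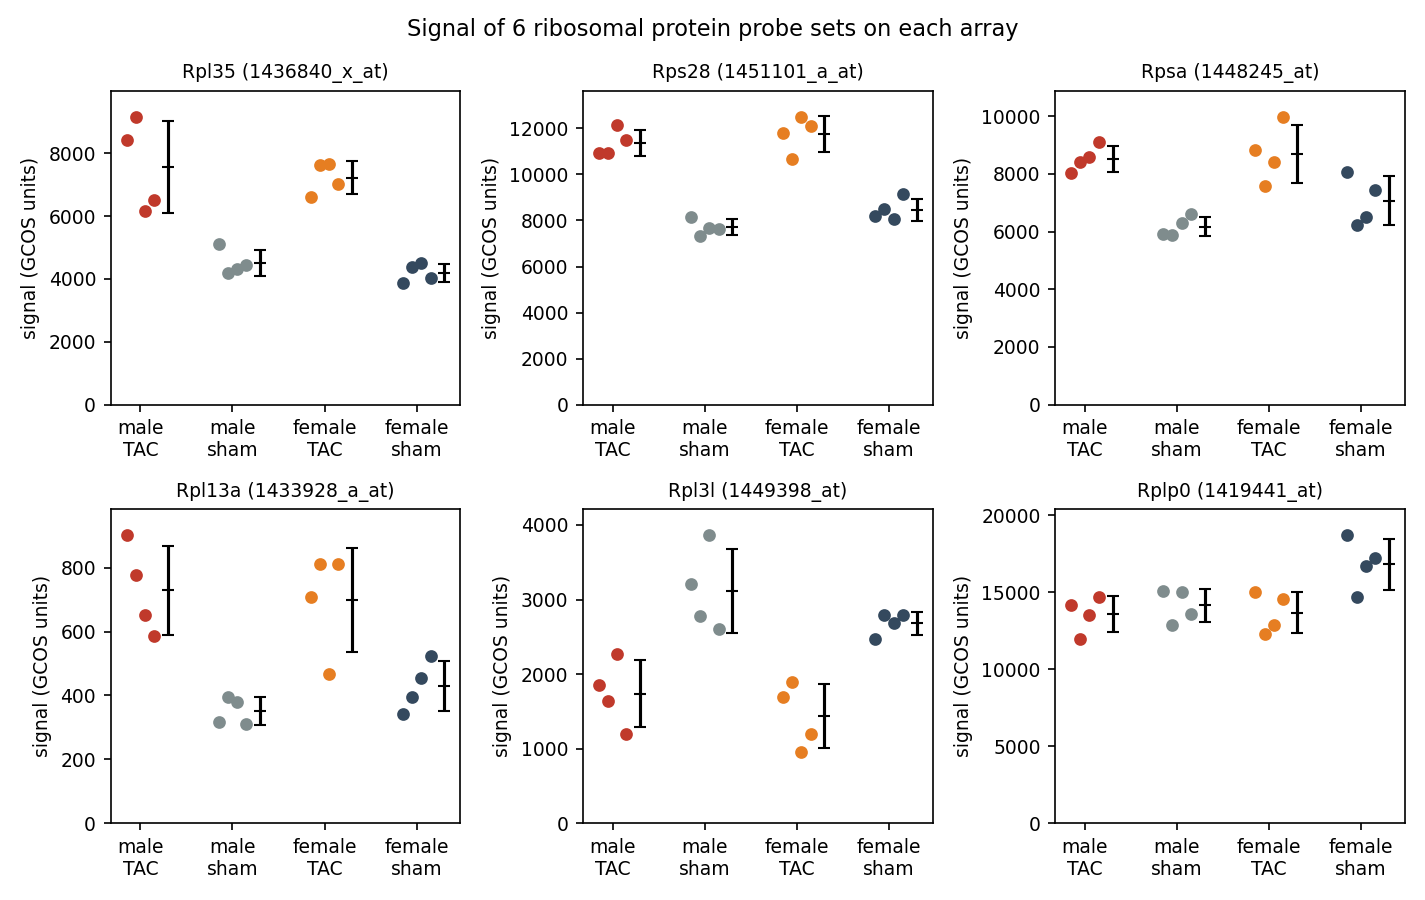
Deposited signal (vertical axis, linear, from 0) of 6 ribosomal protein probe sets on each array in male TAC, male sham, female TAC and female sham, with the group mean and SD (n = 4) beside the points. Rpl35 and Rps28 are above every sham array on all TAC arrays, Rpl3l is below, and Rplp0 overlaps between the operations in each sex.

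Rpl41, one of the smallest ribosomal proteins, had 3 probe sets past the limit that did not move together. Probe set 1422623_x_at had 7429.6, 7621.7, 8381.6 and 7331.5 in male TAC against 5565.8, 5211.7, 5264.6 and 5357.3 in male sham, and rose by 0.52 (adjusted p = 0.000985). In females it had 8051.7, 7678.9, 6930.4 and 8095 after TAC against 7357, 5224.2, 5830.9 and 6175.4 in sham, with 1 sham array inside the TAC range, and rose by 0.33 (adjusted p = 0.0284, at most 0.108 with 1 array left out, where 6 of 16 such fits ended the call). Probe set 1455578_x_at differed by 0.83 in males (adjusted p = 0.0432), a call that 7 of the 16 left-out arrays ended, with an adjusted p of at most 0.167, that without male sham 2. The low-signal 1454639_x_at differed the other way, by −0.48 in the mean of the sexes, and did not pass (adjusted p = 0.0869).

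Rpl27, Rpl38, Rpl22, Rpl19 and Rpl10a also had calls in the large subunit. On 1448217_a_at, Rpl27 rose in females, with 1406.1 to 1905.4 after TAC against 960.6 to 1212 in sham (difference 0.52, adjusted p = 0.0135, and 0.0504 without female sham 1). Its difference in males there was 0.25 (adjusted p = 0.225). With the Gapdh covariate the female call was lost (adjusted p = 0.481). Rpl27 also rose in females on 1453096_x_at, by 0.52 (adjusted p = 0.0277). Its brightest probe set, 1416099_at, had 0.11 in females (adjusted p = 0.649) and −0.09 in males (adjusted p = 0.704). Rpl38, which acts in the translation of selected developmental mRNAs in mouse embryos, had 19954.9 to 21609.4 in male TAC against 13357.3 to 18843.4 in male sham (difference 0.32, adjusted p = 0.0246, ended by 3 of the 16 left-out arrays, with at most 0.0958 without male sham 2). Rpl22 rose in the mean of the sexes by 0.45 (adjusted p = 0.0200) on 1416603_at. Its second probe set had 0.13 and did not pass, and its paralog Rpl22l1, which Rpl22 represses in mouse cells, had −0.12 (adjusted p = 0.536). Rpl19 rose by 0.21 (adjusted p = 0.0318), and 8 of 16 left-out arrays ended the call, with an adjusted p of at most 0.0756, that without female TAC 5. Rpl10a, which lies outside the rule for named probe sets and was chosen after its values were seen, rose by 0.22 in the mean of the sexes (adjusted p = 0.0471).

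Rpl7l1, a paralog of Rpl7 that is known as a factor of large-subunit assembly, rose in the mean of the sexes by 0.49 on 1452049_at (adjusted p = 0.0153). In males its signals were 634 to 790.2 after TAC against 459.2 to 504.2 in sham, without overlap, and in females 373.5 to 895 against 394.5 to 577.8. Its other probe set had 0.04 and Rpl7 itself had 0.07 to 0.22 on 3 probe sets, none of which passed. Rpl39, the parent of Rpl39l, had 0.07 (adjusted p = 0.669). Rpl11, which binds the p53 regulator Mdm2 when ribosome assembly is disturbed, had 0.26 (adjusted p = 0.0777).

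For the stalk, which recruits elongation factors to the ribosome, Rplp0 and Rplp2 were tested on 1 probe set each, and neither rose. No probe set was annotated to Rplp1 alone. Rplp0, the stalk's base, had 14168.5, 11999.8, 13549.2 and 14705.6 in male TAC against 15087.3, 12878.3, 15015.9 and 13625.4 in male sham, and the groups overlapped. In females it had 15027.2, 12311.4, 12867.3 and 14556.8 after TAC against 18715.9, 14687.5, 16692.1 and 17209.8 in sham, where 1 TAC array was above the lowest sham array. The difference was −0.06 in males (adjusted p = 0.749) and −0.30 in females (adjusted p = 0.0458). The female call was lost in 20 of 29 other settings, 11 of them with 1 array left out, where the adjusted p reached 0.139 without female sham 1. Rplp2, its partner in the stalk, had −0.03 in males (adjusted p = 0.863) and −0.24 in females (adjusted p = 0.115).

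**Figure D3:**
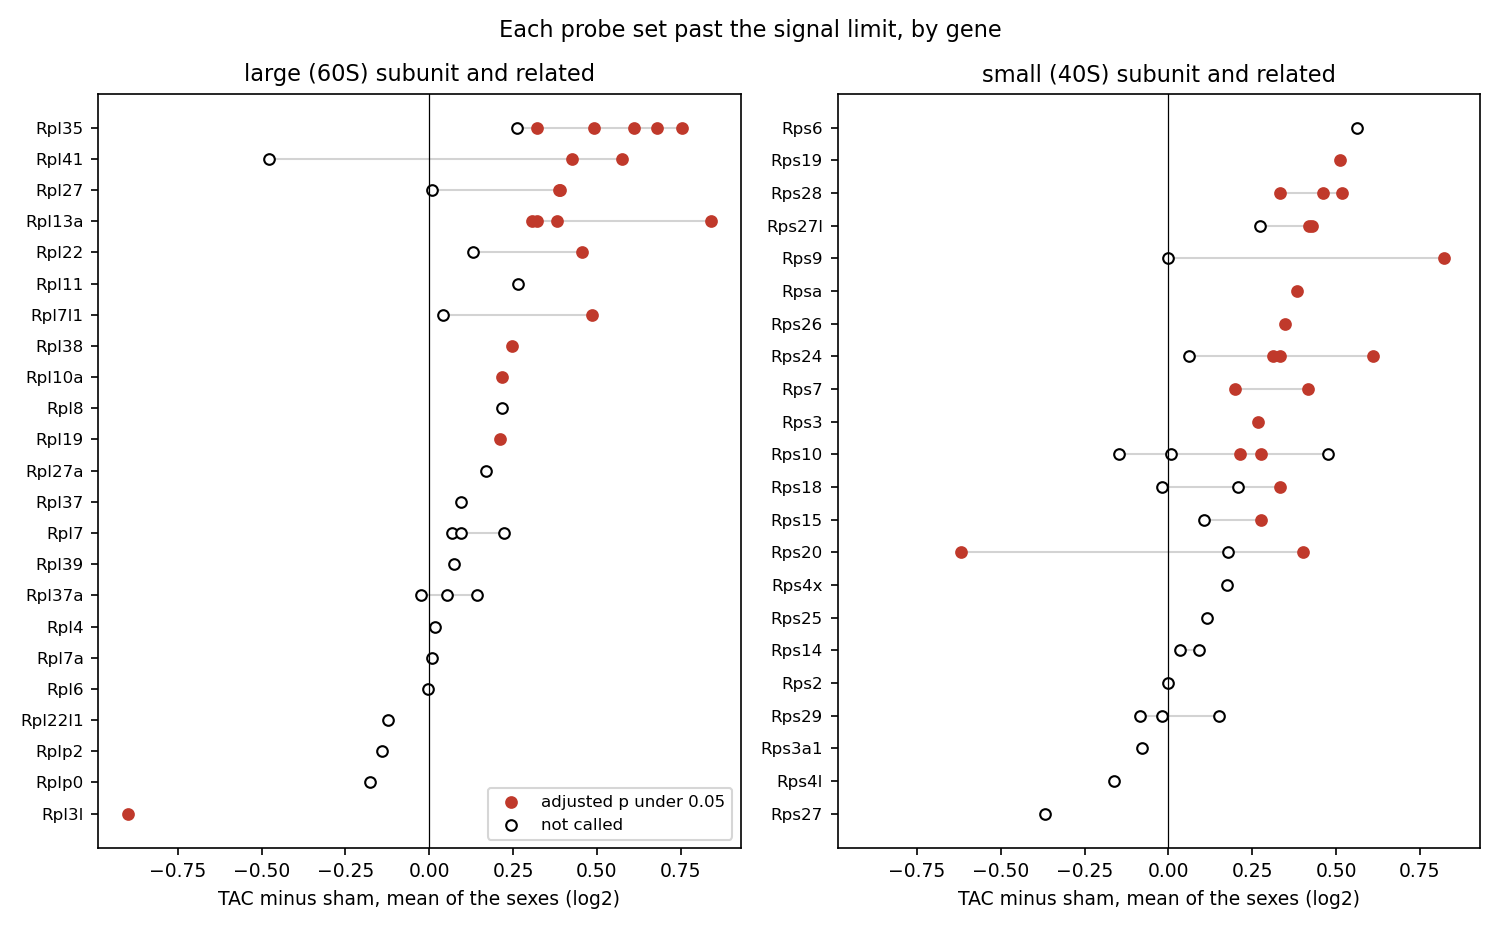
TAC minus sham in the mean of the sexes (horizontal axis, log2) for each of the 84 probe sets, 1 row per gene ordered by the gene's median, large subunit left and small subunit right. Red points have an adjusted p under 0.05, open points do not, and grey lines join the probe sets of 1 gene: 38 points are red to the right of 0 and 2 to the left, Rpl3l and 1 probe set of Rps20.

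In the small subunit, Rps28, which lies near the mRNA exit site, rose on all 3 of its probe sets in each sex. Probe set 1451101_a_at had 10924.6, 10915.1, 12144.3 and 11478.2 in male TAC, against 8167.9, 7338.7, 7654.6 and 7649.5 in male sham. In females it had 11784.5, 10661.8, 12506.5 and 12100.3 after TAC, against 8199.1, 8477.2, 8058.9 and 9137 in sham. All 8 TAC arrays were above all 8 sham arrays, and the spread within each group was small. The difference was 0.56 in males (SE 0.08, adjusted p = 8.42e-05), 0.47 in females (SE 0.08, adjusted p = 0.000540) and 0.52 in the mean of the sexes (SE 0.06, adjusted p = 1.33e-06), a 1.43-fold higher level. This call held in all 27 other settings of the mean of the sexes, the Gapdh covariate included (adjusted p = 0.00317).

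Rpsa, the small-subunit protein also known as the laminin receptor, had 8032.5, 8397.4, 8593.8 and 9113.5 in male TAC against 5932.9, 5874.1, 6293.3 and 6597.3 in male sham. In females it had 8813.7, 7567.2, 8405.9 and 9986 after TAC against 8076.4, 6240.7, 6500.1 and 7445.6 in sham. The male groups were apart, and in females 1 sham array lay within the TAC range. Rpsa rose by 0.47 in males (SE 0.10, adjusted p = 0.00281) and by 0.38 in the mean of the sexes (SE 0.07, adjusted p = 0.000383), and its female difference of 0.30 did not pass (adjusted p = 0.0506). Both calls held in all other settings, with adjusted p at most 0.0352 in males and 0.0209 in the mean of the sexes, both with the Gapdh covariate.

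Rps20 and Rps19 rose in both sexes. On 1456436_x_at, Rps20 had 7653.6 to 9336.1 in male TAC against 5672.6 to 7264.4 in male sham, and 8343.7 to 9932.4 in female TAC against 6707 to 7550.6 in female sham, so that all TAC arrays were above all sham arrays. Its difference was 0.48 in males (adjusted p = 0.00169) and 0.33 in females (adjusted p = 0.0274, at most 0.0879 with 1 array left out, without female TAC 5). Rps19, which is mutated in many patients with Diamond-Blackfan anaemia, had 4785.3 to 7924.6 in male TAC against 3740.7 to 4263.5 in male sham, and 4830 to 5883.1 in female TAC against 3124.4 to 4785.9 in female sham. Its difference was 0.55 in males (adjusted p = 0.00956) and 0.47 in females (adjusted p = 0.0307, at most 0.111 with 1 array left out, without female sham 1). With the Gapdh covariate Rps19 did not pass in males (adjusted p = 0.951) or females (adjusted p = 0.785). Nor did it with the 18S covariate (adjusted p = 0.319 and 0.174). Over the alternatives its difference lay between 0.04 and 0.65 in males and between 0.12 and 0.58 in females. Rps20 did not pass with the Gapdh covariate either (adjusted p = 0.112 in males and 0.176 in females), but passed with the 18S covariate.

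Rps27l, a p53-induced paralog of Rps27, rose on 2 of its 3 probe sets in the mean of the sexes, by 0.42 on 1435429_x_at (adjusted p = 0.000481) and 0.43 on 1423254_x_at (adjusted p = 0.00785). On the first it had 2843.7 to 3422.3 in female TAC against 2090.2 to 2406.8 in female sham, apart, and 2808.7 to 3768.7 in male TAC against 2221.2 to 2897.9 in male sham, with an overlap. Rps27 had −0.37 on its single probe set and did not pass (adjusted p = 0.216), with 239 to 601.8 in male TAC against 290.7 to 738.5 in male sham and 292 to 707.4 in female TAC against 502.7 to 942.4 in female sham. In the main fit the paralog and its parent thus had differences of opposite sign, of which only that of Rps27l passed. The difference between them was not tested. On 1435429_x_at the Rps27l call in the mean of the sexes was lost with the Gapdh covariate (adjusted p = 0.770) and with the 18S covariate (adjusted p = 0.172). Over the 28 alternatives that difference lay between 0.10 and 0.51.

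Several small-subunit genes rose in males and did not pass in females. Rps24 on 1456628_x_at had 9553.3, 8337, 8553.5 and 7891.9 in male TAC against 6711.9, 4353.9, 4238.1 and 4283.2 in male sham, a difference of 0.83 (adjusted p = 0.00128), and had 0.39 in females (adjusted p = 0.122). Rps7 on 1435593_x_at had 5630.4 to 6754.2 in male TAC against 3765.6 to 4638.2 in male sham (0.59, adjusted p = 0.000725), and 0.24 in females (adjusted p = 0.147). Rps26 had 7428.8 to 8777.2 against 5534.9 to 6267.6 (0.46, adjusted p = 0.00217), and 0.23 in females (adjusted p = 0.118). On these probe sets the male TAC and male sham groups did not overlap. On the brighter Rps7 probe set, 1419364_a_at, male TAC had 8427.3 to 10738.1 against 7319 to 8441.7 in male sham, with an overlap. The brightest Rps24 probe set, 1436064_x_at, had 13398.9 to 15353.4 in male TAC against 12472.6 to 13116.1 in male sham. In females it had 13893.1 to 15729.4 after TAC against 14738.3 to 15889.5 in sham.

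Rps15 and Rps3 also passed in males and not in females. Rps15, a protein of the subunit's head, had 7466.1 to 8751.3 in male TAC against 5332.7 to 6580.3 in male sham on 1416088_a_at. The difference was 0.41 (adjusted p = 0.00284), and it was 0.14 in females (adjusted p = 0.349). On its brighter probe set, 1416089_at, male TAC had 8709.9 to 11996.2 against 8152.1 to 10480.2 in male sham, with an overlap. Rps3, which lines the mRNA entry channel and also acts in DNA repair, had 5875.4 to 7958.3 against 4606.3 to 5240.8 (0.46, adjusted p = 0.0114, and 0.0502 without male TAC 2), and 0.08 in females (adjusted p = 0.725). None of these differences between the sexes passed the test of the difference itself, as given with the sex comparison. Rps6, the substrate of the S6 kinases, had 302.6 to 497.6 in male TAC against 137.2 to 410.6 in male sham, and 299.5 to 693.3 in female TAC against 177.5 to 408.9 in female sham. Its difference of 0.56 in the mean of the sexes did not pass (adjusted p = 0.0572). Rps4x, an X-linked small-subunit protein, had 0.17 (adjusted p = 0.0696).

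Probe sets of 1 gene did not always give the same direction. Of the 19 genes with several probe sets past the limit, 12 had differences of 1 sign throughout in the mean of the sexes and 7 had both signs. In 5 of those 7 at least 1 probe set passed: Rpl41, Rps9, Rps10, Rps18 and Rps20. The low-signal Rps20 probe set 1421935_at fell by 0.62 (adjusted p = 0.0397), while 1456436_x_at rose by 0.40. The former had 140 to 238.9 in male TAC against 197.4 to 326.3 in male sham. In females it had 87.4 to 148.5 after TAC against 92.8 to 264.7 in sham. That fall was lost without any of 10 single arrays, with an adjusted p of at most 0.0853, that without female sham 3.

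For Rps9, 1434624_x_at rose by 0.82 (adjusted p = 0.0140) while 1433689_s_at had 0.00 (adjusted p = 0.987). For Rps10, 1456497_x_at and 1434854_a_at rose by 0.27 (adjusted p = 0.0106) and 0.21 (adjusted p = 0.0178), while 1438723_a_at had −0.15 (adjusted p = 0.203). Rps18 rose in females on 1455572_x_at, with 7680.8 to 11075.7 after TAC against 6276.8 to 7541.6 in sham (0.44, adjusted p = 0.0113), while 1435712_a_at had −0.02 in the mean of the sexes (adjusted p = 0.915). In 7 genes the only probe sets that rose in the mean of the sexes were others than the brightest one.

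The kind of probe set went with the share that rose. Names ending in _x_at mark probe sets with probes that can also bind other transcripts, and ribosomal protein genes have many near-identical pseudogenes, so these values are uncertain as to their gene. In the mean of the sexes 22 of 38 _x_at probe sets rose, 12 of 27 _a_at probe sets, which bind several transcripts of 1 gene, and 4 of 17 with the plain ending _at, where 33.8%, 15.7% and 9.17% of all tested probe sets with these endings rose. In females 12 of 38 _x_at, 4 of 27 _a_at and 0 of 17 plain probe sets rose, where 19.5%, 8.41% and 4.16% of all did, and 2 plain ones fell. The 2 that fell in the mean of the sexes both had the plain ending as well. The medians were 0.32 for _x_at, 0.21 for _a_at and 0.11 for _at.

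Within groups, probe sets of 1 gene varied together only in part. The median correlation of the deviations from the group means over the 16 arrays was 0.30 for 70 pairs of probe sets of the same gene. For 3416 pairs of different ribosomal protein genes it was 0.09. For 232221 pairs of other probe sets, all with a mean log2 signal of at least 12, it was 0.08. The ribosomal protein pairs were not limited to that level and included 26 probe sets below it, so brightness was not matched. All of these pairs share arrays and scaling, and the values are descriptions.

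The responses of females and males were compared directly, which the series title names as its question. No ribosomal protein probe set passed for the female response minus the male response with limma (0% of all 13576 passed, and the smallest adjusted p among the 84 was 0.669). At an unadjusted p under 0.05, 2 probe sets, of Rps10 and Rpl35, had a difference above 0 and 6 had one below 0, where 3.44% and 3.17% of all did. The 6 were 2 probe sets of Rps24 and 1 each of Rpl13a, Rps7, Rps3 and Rps15, with differences between −0.40 and −0.28. The difference lay above 0 for 21 of the 84 and below 0 for 63, where 49.0% of all probe sets lay above 0, and its median was −0.13. The median standard error was 0.17, so differences of responses of this size were not measurable for most single probe sets.

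Of the 16 probe sets that rose in females, 13 also rose in males, which is 81.2% of the female calls and 43.3% of the male calls. Among the probe sets called in both sexes, Rpl35 on 1436840_x_at had a female minus male difference of responses of 0.06 (SE 0.17), Rps28 on 1451101_a_at −0.09 (SE 0.12), Rpl3l −0.09 (SE 0.28), Rps27l on 1435429_x_at 0.07 (SE 0.16) and Rps19 −0.09 (SE 0.20). A p that misses the threshold does not show that the sexes respond alike.

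**Figure D4:**
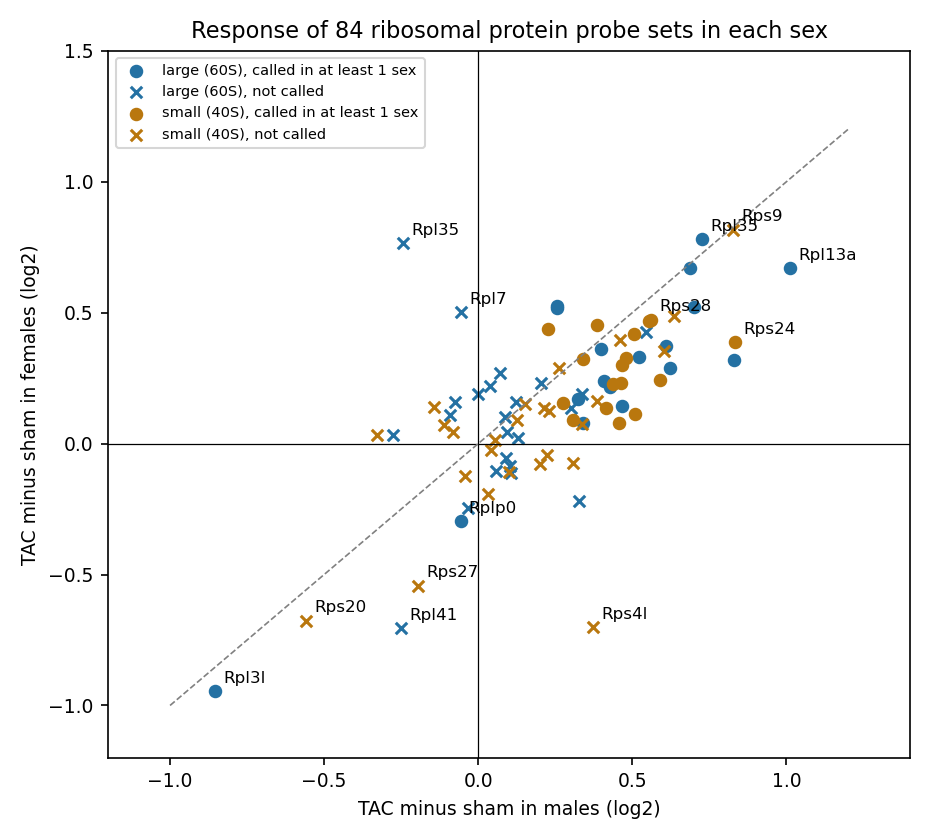
TAC minus sham in males (horizontal axis, log2) against TAC minus sham in females (vertical axis, log2) for the 84 probe sets, with the dashed line of equal responses. Blue marks the large and orange the small subunit, and filled circles are probe sets with an adjusted p under 0.05 in at least 1 sex. In all, 56 points lie above 0 in both sexes and 63 lie below the dashed line.

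Between female and male mice under the same operation no ribosomal protein probe set passed. Within sham, 0 of 84 passed with limma, where 0.0958% of all probe sets were higher and 0.214% lower in females, 0.309% in both directions. Differences lay above 0 for 53 of the 84, against 49.7% of all, and 15 were higher and 3 lower in females at an unadjusted p under 0.05, where 5.24% and 5.25% of all were. The groups did not overlap for 8 that were higher and 1 that was lower in females, where 3.59% and 3.50% of all probe sets did not overlap in those directions. Among them were Rps26, with 6393.8 to 8490.8 in female sham against 5534.9 to 6267.6 in male sham (0.32, adjusted p = 0.217), and Rpl19, with 9583.1 to 10022.3 in female sham against 7331 to 8722.1 in male sham (0.27, adjusted p = 0.338). The lower one was the low-signal Rpl35 probe set 1454833_at (−1.42, adjusted p = 0.0840).

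Within TAC, 0 of 84 passed with limma, where 0.0589% of all probe sets were higher and 0.00737% lower in females, 0.0663% in both directions, with 1 higher and 0 lower in females at an unadjusted p under 0.05, where 3.43% and 3.01% of all were. The female and male arrays overlapped for all 84, where 1.68% of all probe sets were higher and 1.75% lower without overlap. Differences lay above 0 for 32 of the 84, against 47.7% of all, and the median of the 84 was −0.04, against 0.08 within sham. The comparisons within sham, within TAC and of the responses share arrays, so these values are not separate evidence. Rps4l, a retroposed copy of Rps4x in the mouse, had 477.2, 540.3, 419.7 and 413.9 in female sham against 493, 119.3, 183.5 and 128.5 in male sham, where 1 male array lay within the female range. Its difference of 1.17 did not pass (adjusted p = 0.423).

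Other genes that make or use ribosomes were described from lists of known function, with 1 probe set per gene, and in the mean of the sexes 13.4% of all genes rose and 13.1% fell on that count. Fau, which encodes the small-subunit protein Rps30 fused to a ubiquitin-like protein, was the only 1 of 3 ribosome parts outside the naming rule that was measured. It rose in males by 0.43 (adjusted p = 0.00434) and in the mean of the sexes by 0.32 (adjusted p = 0.00151), with 0.21 in females (adjusted p = 0.166). Of 8 elongation factors 2 rose and 0 fell in the mean of the sexes, where the list's median was 0.04: Eef1b2, an exchange factor for eEF1A, by 0.47 (adjusted p = 0.000136) and Eef1a1, which delivers aminoacyl-tRNA, by 0.29 (adjusted p = 0.00617). Of 17 other mRNAs known to carry a TOP tract, a list that shares genes with the others, 7 rose and 2 fell, and the median was 0.10. Vim, the intermediate filament of mesenchymal cells, rose by 0.59 (adjusted p = 0.000450) in that list.

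Of 32 initiation factors 6 rose and 6 fell in the mean of the sexes, against 13.4% and 13.1% of all genes, with a median of 0.06. Those that fell included Eif3m, a subunit of the eIF3 complex (−0.94, adjusted p = 5.62e-07), Eif4e, which binds the mRNA cap (−0.76, adjusted p = 0.000185), and the helicase Eif4a2 (−0.50, adjusted p = 0.000113). Eif3m averaged 842.8 in male TAC against 1600.0 in male sham, and 875.1 in female TAC against 1712.8 in female sham. Eif4e averaged 1727.8 in male TAC against 3022.6 in male sham, and 1818.3 in female TAC against 3056.0 in female sham. Among those that rose was Eif3f, another eIF3 subunit with a TOP mRNA, by 0.30 (adjusted p = 0.00237).

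Of 54 genes of rRNA processing and subunit assembly, which build ribosomes, 4 rose and 6 fell in the mean of the sexes, both smaller shares than those of all genes, and the median was −0.05. Gnl3, the nucleolar protein nucleostemin, rose by 0.41 (adjusted p = 0.00315), and Pno1, an assembly factor of the small subunit, fell by 0.43 (adjusted p = 0.000880). Of 14 genes of rRNA transcription, 2 rose and 0 fell, with a median of −0.10: Polr1c, a subunit shared by RNA polymerases I and III, by 0.63 (adjusted p = 0.00466) and Ubtf, the upstream binding factor of rRNA genes, by 0.30 (adjusted p = 0.0277). Among 13 genes of growth signalling to ribosomes, 1 rose and 3 fell. Max, the partner of Myc, fell by 0.78 (adjusted p = 0.000105), as did Mxi1, which also pairs with Max, by 0.49 (adjusted p = 0.000909) and the mTORC1 inhibitor Tsc2 by 0.34 (adjusted p = 0.0252), while Ddit4, another mTORC1 inhibitor, rose by 0.82 (adjusted p = 0.0196).

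Cell type markers moved with the operation too, and their part in the ribosomal protein values was not tested. Of 12 cardiomyocyte markers 9 fell and 1 rose in the mean of the sexes, and their summed signal was 340671.0 to 432433.8 in male TAC against 393478.7 to 470465.9 in male sham, and 298052.6 to 398813.2 in female TAC against 402118.3 to 432786.2 in female sham. The one that rose was Nppa, the atrial natriuretic peptide that hypertrophic ventricles produce (2.59, adjusted p = 8.57e-09). Among these cardiomyocyte markers, Myh6 and Myl2 were bright on all arrays. Of 12 fibroblast markers 8 rose and 0 fell, with summed signals of 47681.6 to 72344.5 in male TAC against 29205.4 to 32272.8 in male sham, and 44389.1 to 58892.2 in female TAC against 33038.7 to 38699.4 in female sham.

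Of 11 macrophage markers past the limit 6 rose and 0 fell, with 15181.7 to 16205.3 in male TAC against 10293.2 to 14364.0 in male sham, and 12363.3 to 17988.5 in female TAC against 10003.8 to 11387.9 in female sham, summed over 12. Of 6 markers of proliferating cells 5 rose and 0 fell, with summed signals over 7 of 2715.1 to 3280.1 in male TAC against 1763.9 to 2395.0 in male sham, and 2951.1 to 5476.9 in female TAC against 2590.9 to 3525.2 in female sham. Of 7 smooth muscle and pericyte markers 3 rose, and of 10 endothelial markers 0 rose and 0 fell. Only 2 of 10 lymphocyte and 2 of 4 erythroid markers passed the limit, and none of these rose or fell.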

How the data were processed

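Left ventricular RNA of 16 mice was measured on 16 arrays, 4 in each group. Groups were taken from the labels' source names. The authors deposited a linear signal intensity for each probe set, computed with GCOS per the submitters' processing notes; version, settings and detection calls are not given in the sources used here. The deposited intensity was already scaled: without 2% at each end, the mean signal was 500.21 to 500.25 on all arrays.

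From these values log2(signal + 16) was computed. The 64 control probe sets and the dimmest 40% were left out (limit at a signal of 130.8). One linear model with 4 group means was fitted over all 16 arrays with limma 3.58.1 in R 4.3.3, its variance prior following the mean level; p values were 2-sided and adjusted over 13576 probe sets after Benjamini and Hochberg, and the threshold was an adjusted p under 0.05; all adjusted p values of genes come from it or from its alternatives. The procedure was tested on simulated data. Genes were named from the platform annotation, and all 100 probe sets matched RefSeq (GRCm38.p6) with 0 changed symbols. RefSeq also gave the promoters.

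Named probe sets were, by rule, up to 20 calls per TAC comparison by smallest p, the 3 highest and 3 lowest differences, paralogs with their parents, stalk and scaffold genes, and genes with probe sets of opposite sign. The members, lists and tests were chosen with earlier results of these data known. Alternatives were quantile normalization, median centring, other pseudocounts and filters, no trend, array weights, only the groups compared, a replicate block, the 18S and Gapdh covariates, 1 probe set per gene, leaving out the suffixes _x_at and _s_at, and each array left out in turn.

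Consecutive numbers in the titles follow the groups. If these numbers mark an order of handling, that order and the group cannot be told apart. The arrays' number limits the precision.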

Additional observations from a re-analysis of the deposited data

Results flagged for a closer look

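Among the named probe sets, 6 of 184 group-by-probe-set values had 1 array far from the other 3, and over all 84 probe sets 11 of 336 did (3.27%), where chance gives about 1 in 20. Of the 6, 3 were on female sham 1. On that array Rpl27 (1448217_a_at) had 960.6, against 1173.1 to 1212 on the other female sham arrays, Rpl38 (1433472_x_at) had 15482, against 17686.1 to 18019.6, and Rps3 (1435151_a_at) had 7702.8, against 5347.7 to 5618.7. Without that array 13 probe sets rose in females and 37 in the mean of the sexes. Rps24 (1456628_x_at) had 6711.9 on male sham 1, against 4238.1 to 4353.9 on the other male sham arrays. Rps7 (1435593_x_at) had 6695.4 on female TAC 5, with 5590.7 to 5711.2 in the rest of its group. Rps4l (1452730_at) had 43 on male TAC 2, while its 3 companions had 379.6 to 564.4. The log2 signal of the 18S rRNA control's 5′ probe set was 13.2 on male TAC 5, while the rest of that group had 9.06 to 9.54, and 26 probe sets rose in males without that array.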

How the results depend on the processing

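None of the named calls changed direction in any alternative; the median of female minus male within TAC, for which nothing was called, was 0.0375 with median centring against −0.04. The number that rose in males was 15 with the 18S covariate, 3 with the Gapdh covariate, 13 with 1 probe set per gene and 13 without the suffixes _x_at and _s_at. In females it was 10 without an intensity trend, 10 with the replicate block, 2 with the Gapdh covariate, 4 with 1 probe set per gene and 4 without those suffixes. In the mean of the sexes it was 19 with the 18S covariate, 3 with the Gapdh covariate, 14 when the test was run on 1 probe set per gene, and 16 without those suffixes. The setting with 1 probe set per gene tests fewer probe sets. Leaving out the suffixes keeps the main fit and counts only the 27 _a_at and 17 _at probe sets. The cause of the other changes was not tested. The number that fell in females was 0 with the Gapdh covariate and 1 with quantile normalization, median centring, no filter, no intensity trend, array weights, the 18S covariate and 1 probe set per gene. In the mean of the sexes 1 fell with quantile normalization, median centring, no filter, the 18S and Gapdh covariates and 1 probe set per gene (with Gapdh a Rps10 probe set, not Rpl3l or Rps20), and in males 2 fell without the dimmest 60%. The median with median centring was 0.27 in females and 0.30 in the mean of the sexes, and with 1 probe set per gene 0.0902 and 0.141.

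With each array left out in turn, 22 to 31 probe sets rose in males (22 without male TAC 2), 10 to 17 in females (10 without female TAC 5) and 34 to 40 in the mean of the sexes, and 1 to 2 fell in each. The medians were 0.22 to 0.28 in males, 0.14 to 0.19 in females, 0.19 to 0.24 in the mean of the sexes, −0.18 to −0.11 for the difference of responses, 0.05 to 0.11 for the sexes within sham and −0.08 to −0.0009 within TAC. Within sham 0 to 1 were lower in females. For the difference of responses and within TAC 0 passed without any array.

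Of the named calls, 14 of 21 in males, 6 of 12 in females and 23 of 27 in the mean of the sexes were kept without each array in turn. The Gapdh covariate ended 18, 10 and 24 of them, and the 18S covariate 10, 5 and 11. The replicate block ended 3 in males, 4 in females and 6 in the mean of the sexes. Same-numbered TAC and sham arrays of 1 sex, 6 pairs, had correlations of deviations between −0.03 and 0.11, with a median of 0.04. Arrays of different number from any 2 groups had −0.12 to 0.13, with a median of −0.006. These values show no clear pairing by replicate number, but they cannot exclude a shared batch. Detection calls and background were not used, so depth over background is unknown.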
